A study of Homo sapiens with 6 samples.

Results

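The actin cytoskeleton is a network of filaments built from actin monomers that lies under the plasma membrane, in stress fibers and in protrusions. Monomer-binding proteins set how much actin is free to polymerize, nucleators start filaments or branches, capping and severing proteins end or cut them, crosslinkers and tropomyosins stabilize them, and nonmuscle myosin II pulls on them. The same network anchors cells to the substrate through adhesion complexes and is known for the change between spread and round cell shapes. The transcription factor SRF, with its MRTF cofactors, is a known activator of many genes of this group and binds a sequence element called the CArG box.

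A set of 59 actin cytoskeleton and actomyosin genes was chosen by gene name and function from the 58735 genes of the count table. Earlier results of these data were known when it was chosen. It covers actins, monomer-binding and turnover factors, the Arp2/3 complex, nucleation and elongation factors, tropomyosins, nonmuscle myosin II, crosslinkers, capping and severing proteins, calponins and transgelins, and the ezrin, radixin and moesin linkers. Of these, 57 passed edgeR's filter on low counts and were tested among 17514 genes, while MYL9 and CNN1 were not.

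The libraries came from H1155, a cell line that the labels describe as neuroendocrine large cell lung cancer, grown without treatment in DMEM with 10% FBS. Of the 6 libraries, 3 were labelled WT and 3 GFI1-KO, in which a CRISPR/Cas9 deletion had been aimed at the promoter region of GFI1, a transcriptional repressor. The knockout cells were sorted as GFP+ monoclonal clones, so that they may differ from WT also by clone, and the sources used here do not say how many clones the libraries hold. No source says that libraries of a group were separate cultures, so p-values measure only the spread between these libraries, which may be technical.

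Total counts, which set the precision of each value, lay between 14882914 and 16102215 for WT and between 17503794 and 17692882 for GFI1-KO, and replicates differed by more than sampling noise (chi-square per degree of freedom between 1.85 and 4.39). GFI1 itself had 153, 106 and 125 counts in WT and 174, 188 and 170 counts in GFI1-KO, so that its log2 fold change was 0.31 with a standard error of 0.12 (adjusted p = 0.0273). It was 0.072 and not called with the offsets for GC content and gene length described below (adjusted p = 0.636), and was not called by DESeq2 (adjusted p = 0.127). The targeted gene was not called lower in GFI1-KO by any fit, so WT and GFI1-KO are used below as labels, and each direction rests on them. Gene counts do not show which part of GFI1 the reads cover. The paper also examined GFI1 protein in its H1155 and knockout cells by immunoblot, which RNA counts do not measure. It cites that immunoblot where it reports the deletion of GFI1 in H1155 cells. The 10 neuroendocrine markers examined all passed the filter, of which 5 were higher and 5 lower in GFI1-KO. Of all tested genes, 36.5% were called higher and 35.9% lower. With the offsets, 4 of these markers were higher, 4 lower and 2 not called. Among markers of other cells, all 5 of leukocytes stayed at or below 10 counts in every library, as did 5 of 10 of fibroblasts, 3 of 5 of endothelium and 4 of 8 of smooth muscle, and of these CD3E and DCN had no count at all. The summed normalized counts of the fibroblast markers ranged from 3143 to 3232 in WT and from 2238 to 2315 in GFI1-KO. Most of this sum was COL1A2, with a mean of 2912 in WT and 2008 in GFI1-KO, and the 5 markers tested did not move together. COL1A1, COL1A2 and PDGFRB (from 141 to 14.8) were lower, and COL3A1 (from 2.49 to 139) and PDGFRA (from 1.08 to 14.8) were higher. Those of the smooth muscle markers ranged from 1026 to 1107 in WT and from 1786 to 1948 in GFI1-KO, and those of endothelial markers from 446 to 502 and from 222 to 248. Of the smooth muscle markers SMTN (mean from 499 to 1043) and SYNPO2 (from 508 to 736) were higher and made up most of their sum. MYH11 and LMOD1 were not called. Of the endothelial markers PECAM1 (from 455 to 209) was lower and made up most of their sum, and CDH5 was not called (log2 fold change 0.47). Their part in the results below was not tested, and in such bulk RNA a change in the fraction of cells of a type and a change in RNA per cell cannot be told apart.

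The actin cytoskeleton genes moved in both directions. Levels are given below as normalized counts, that is counts divided by the effective library size (TMM method) and scaled to the mean library, or, where genes are compared, as FPKM, counts scaled to gene length and library total. Fold changes are GFI1-KO over WT, values after ± are SDs (n = 3), SE is the standard error of a log2 fold change, adjusted p-values are from 1 test over all genes, and positions are on GRCh38. With an adjusted p of 0.05 as the highest accepted (quasi-likelihood test of edgeR, Benjamini-Hochberg adjustment over 17514 genes), 28 of the 57 tested members (49.1%) were higher in GFI1-KO and 22 (38.6%) were lower, while 7 did not pass the threshold. Of all tested genes, 36.5% were called higher and 35.9% lower, 72.4% in all, so that most genes passed this test in these libraries. The median log2 fold change was 0.14 over the members, which ranged from -1.89 to 3.03, and 0.00 over all tested genes. In 51 members the libraries of each group lay entirely apart from the other, 28 of them higher and 23 lower, as did 74.4% of all tested genes (37.5% higher and 37.0% lower). A change of at least 1 on the log2 scale was passed upward by 8 members, namely CAPG, ACTA2, MYL6, ARPC1B, TMSB10, CFL1, TPM2 and CNN2, and downward by FLNC alone, compared with 10.2% of all tested genes upward and 7.29% downward. In 14 members, more than 10% of the 50-base words of the transcripts also occur in other genes, so that their reads may have been split or lost by a counting rule that the sources used here do not give. These were ACTA2, CFL1, PFN1, TMSB4X, ARPC1A, ARPC1B, ARPC4, ARPC5L, CORO1B, TPM1, TPM4, MYL6, ACTN4 and TAGLN. Of these, 11 were higher, and without them 17 of 43 members were higher and 20 lower, and the median was -0.05. Members took between 2.39% and 2.42% of all counts in WT and between 2.52% and 2.55% in GFI1-KO. Per gene length, their summed FPKM ranged from 7715 to 7811 in WT and from 8907 to 9122 in GFI1-KO. Within this sum, mean FPKM rose from 511 to 1522 for TMSB10 and from 2410 to 2841 for TMSB4X. The summed FPKM of the 3 actins was lower in GFI1-KO.

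**Figure D1:**
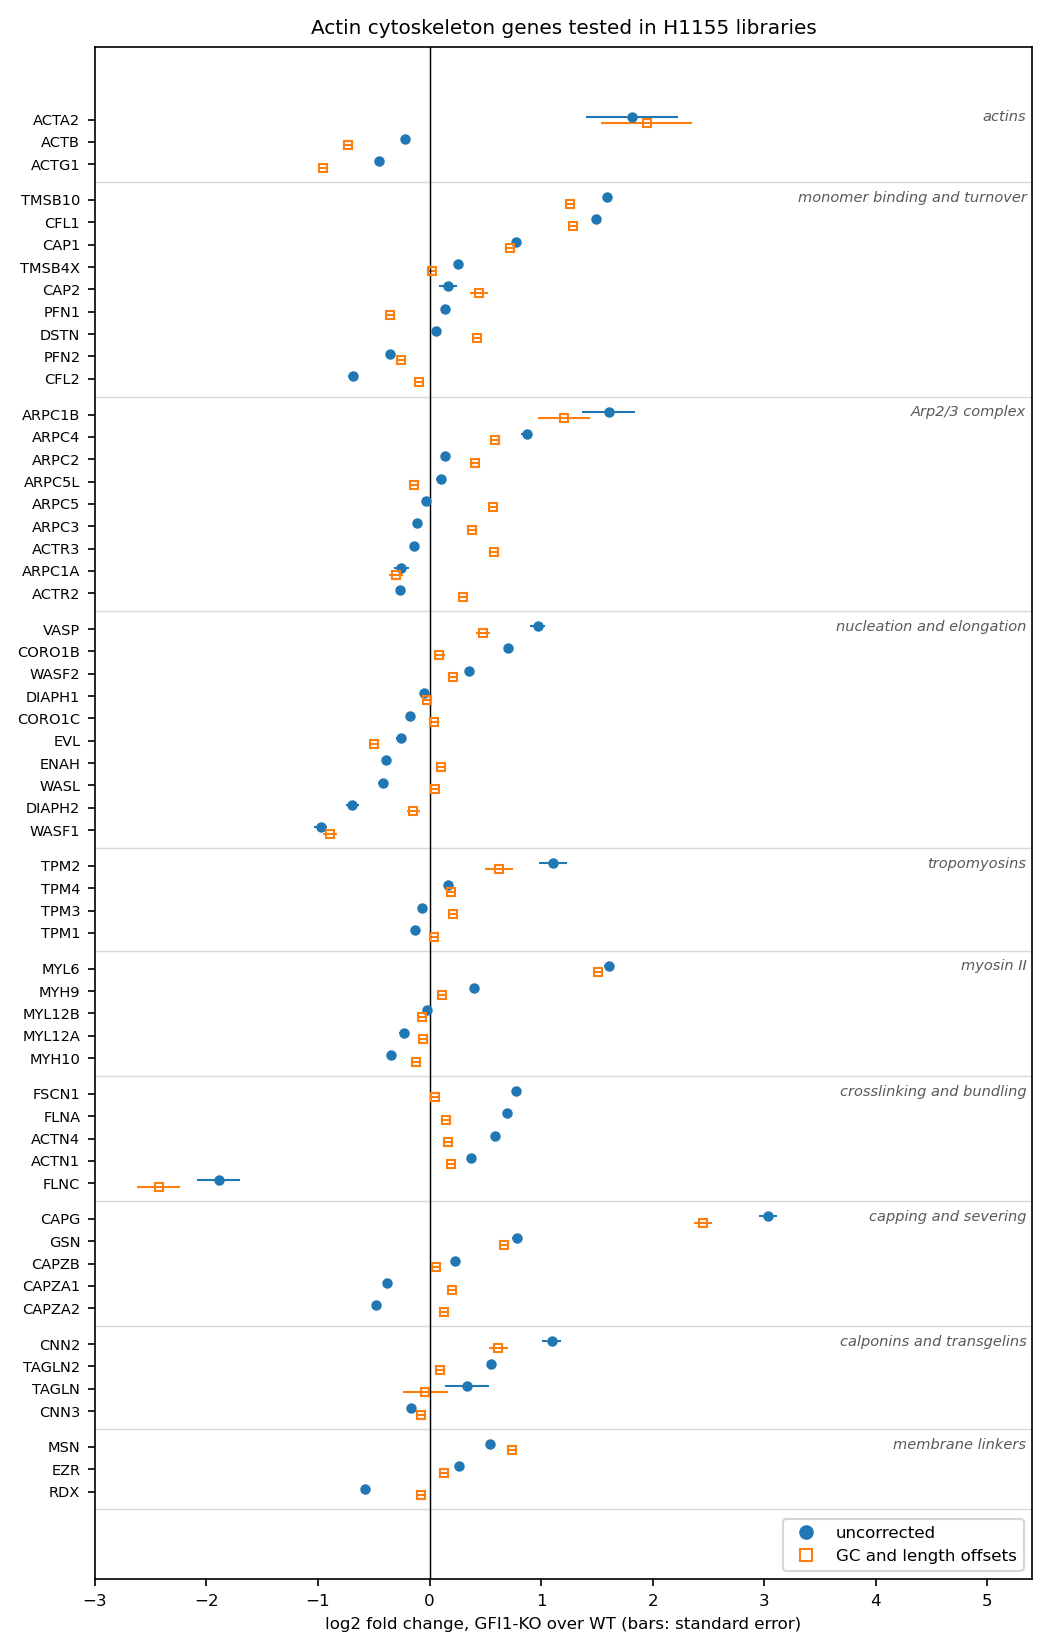
Log2 fold change of GFI1-KO over WT (horizontal axis, n = 3 libraries per group, bars show the standard error) for each of the 57 tested actin cytoskeleton genes, grouped by role. Filled circles are uncorrected values and open squares are values with GC and length offsets; CAPG lies farthest to the right at 3.03 and 2.45, and FLNC farthest to the left at -1.89 and -2.43.

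Among members, as among all genes, fold changes were higher at higher GC content. GC content was measured over the union of a gene's exons and had a median of 49.9% over the 57 tested members (range 35.1% to 65.9%) and of 48.2% over all tested genes. Genes were split into 3 equal parts by GC content. Of the 13 members in the lowest part (up to 43.97%), none was called higher and 10 were called lower, where 8.89% of all genes in it were higher and 68.1% lower. In the highest part (from 53.3%), 18 of 23 members were higher and 4 were lower, where the shares of all genes were 68.3% and 10.1%. In between, 10 of 21 members were higher and 8 lower. The median log2 fold change of members was -0.38, -0.02 and 0.58 from the lowest GC contents to the highest, and that of all genes was -0.43, 0.02 and 0.54. Across the 57 members, Spearman's rho of fold change with GC content was 0.55, and across the 17415 genes with a GC value it was 0.58. These are descriptions over genes measured in the same libraries, not over replicates.

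A fit with offsets for GC content and gene length left a rho of -0.03 over members and 0.03 over all genes. The offsets were fitted to the GC content of all these genes, so that loss of the relation over them was built in. The fit changed the sign of 14 of the 57 fold changes. With these offsets 32 members were higher, 13 were lower and 12 did not pass, compared with 35.8% of all genes higher and 25.9% lower, 61.8% in all. The median log2 fold change of members was then 0.13, and that of all genes 0.06. Without the 14 members of shared sequence, 25 were higher and 10 lower with offsets. Both fits called 33 members in the same direction. The calls of 9 members, TMSB4X, WASL, CORO1B, CORO1C, TPM1, MYL12A, FSCN1, CAPZB and CNN3, were lost with the offsets, and 4 others, DSTN, CAP2, ARPC5 and TPM3, became higher. Opposite calls were made for 8 members. PFN1 and ARPC5L went from higher to lower, while ARPC3, ACTR2, ACTR3, ENAH, CAPZA1 and CAPZA2, all of low GC content, went from lower to higher. No batch is given for these libraries, so GC-dependent effects of library preparation and effects of genotype cannot be told apart. Corrected values are therefore given beside the uncorrected ones.

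Promoters were searched for the CArG box because it is the element that SRF binds. RefSeq promoter windows, from 250 bases before to 50 after a start on GRCh38.p14, were given for 52 of the 59 members, with 86 windows in all, and not for ACTB, TAGLN, MYL9, PFN2, ARPC1B, WASF2 and FSCN1. A CArG box on either strand was found in 5 of the 52 members (9.62%) and in 438 of all 27305 genes of the promoter table (1.60%). Of these 5, ACTN1, CNN2, FLNA and TPM4 were higher and ACTG1 was lower in GFI1-KO. Of all tested members, 49.1% were higher and 38.6% lower, and directions of the other genes with a CArG box were not examined. ACTN1, CNN2, FLNA and ACTG1 lay in the part of highest GC content, where 68.3% of all genes were higher and 10.1% lower. With offsets, log2 fold changes were 0.19 for ACTN1, 0.62 for CNN2, 0.15 for FLNA, 0.20 for TPM4 and -0.95 for ACTG1. Whether the box bears on these directions was not tested. The stretches around the boxes are shown so that the element can be compared between these genes, with the box in capitals and each written 5′ to 3′ along the gene's strand.
ACTG1, chr17:81512874-81512903, minus strand: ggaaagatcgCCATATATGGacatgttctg
ACTN1, chr14:68977718-68977747, minus strand: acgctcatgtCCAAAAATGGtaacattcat
CNN2, chr19:1026509-1026538, plus strand: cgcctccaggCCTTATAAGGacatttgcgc
FLNA, chrX:154374709-154374738, minus strand: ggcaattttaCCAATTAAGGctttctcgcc
TPM4, chr19:16067355-16067384, plus strand: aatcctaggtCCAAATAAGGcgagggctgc
The boxes begin 94 bases upstream of the start in ACTG1 and FLNA, 89 in CNN2, 171 in ACTN1 and 173 in TPM4, counted to the transcript start of the window, which lies inside the annotated gene for all 5, farthest for ACTG1, then ACTN1 and TPM4. The TATA element TATAAA was in the windows of 5.77% of the members and 14.0% of all genes on either strand. The letters AATC, the core that GFI1 is known to bind, were found in 33 of the 52 members (63.5%) and in 73.5% of all genes, so that this short word is common everywhere. A match is a description of letters in a window and not evidence of binding, and no match says only that these letters are not in this window. Genes with several starts had several windows, and by window the CArG box was in 5.81% of those of members and 1.29% of all.

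Cytoplasmic actin transcripts, which supply the monomers of the network, were lower in GFI1-KO, and the few reads of smooth muscle actin were higher. ACTB, the gene of β-actin (ENSG00000075624, chromosome 7 from 5527147 to 5563784, minus strand), had 93297, 96264 and 97563 normalized counts in WT and 82910.4, 81226 and 82466 in GFI1-KO. Its log2 fold change was -0.22 (SE 0.03, adjusted p = 1.38e-07), and -0.73 with GC and length offsets. For ACTG1, which encodes γ-actin and has a CArG box in a promoter window (ENSG00000184009, chromosome 17 from 81509971 to 81523847, minus strand), the values were 57676, 57388 and 59446 in WT and 42234, 42589 and 42945 in GFI1-KO. All 3 GFI1-KO libraries were below all WT libraries for both genes, and ACTG1 fell by 0.45 on the log2 scale (SE 0.03, adjusted p = 1.95e-13). The offsets made both decreases larger, to -0.95 for ACTG1, in genes of high GC content (59.1% and 58.5%). ACTA2, the actin of smooth muscle and myofibroblasts (ENSG00000107796, chromosome 10 from 88935074 to 88991339, minus strand), had only 7, 4 and 4 counts in WT and 19, 22 and 19 in GFI1-KO. This was a log2 fold change of 1.82 (SE 0.41, adjusted p = 3.39e-04), with no overlap of the groups. Its exons overlap those of FAS and of ACTA2-AS1 on the opposite strand, 33.8% of its 50-base words occur in other genes, and the sources used here give no strand setting, so the source of these few reads is uncertain. Summed over the actins, FPKM ranged from 2777 to 2889 in WT and from 2240 to 2269 in GFI1-KO.

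Of 9 genes for proteins that bind monomers or recycle them, 5 rose (CFL1, TMSB10, TMSB4X, CAP1 and PFN1), CFL2 and PFN2 fell, and DSTN and CAP2 did not pass. DSTN, a relative of cofilin, was higher only without WT replicate 3 (0.07) and CAP2, a relative of CAP1, only without GFI1-KO replicate 2 (0.24) among fits without offsets. CFL1 encodes cofilin-1, which severs old filaments (ENSG00000172757, chromosome 11 from 65823022 to 65862026, minus strand), and had 5205, 5261 and 4845 normalized counts in WT against 14026, 14809.6 and 14351 in GFI1-KO. It was thus raised in every GFI1-KO library, from a mean of 5104 ± 226 to 14396 ± 394, or by 1.50 on the log2 scale (SE 0.04, adjusted p = 2.67e-22). TMSB10, a β-thymosin that sequesters monomers (ENSG00000034510, chromosome 2 from 84905625 to 84906675, plus strand), had 4196, 3905 and 4434 normalized counts in WT and 12563, 12899 and 12274 in GFI1-KO. The groups lay far apart, with a log2 fold change of 1.59 (SE 0.04, adjusted p = 3.74e-22). With the offsets, the changes were 1.28 for CFL1 and 1.26 for TMSB10. TMSB4X, the related thymosin-β4 gene (ENSG00000205542, chromosome X from 12975108 to 12977227, plus strand), had the highest level per length of all members, with FPKM of 2410.4 ± 52.0 in WT and 2841 ± 85.9 in GFI1-KO. Its log2 fold change was small at 0.25 (SE 0.03, adjusted p = 2.95e-08) and was 0.02 with the offsets, which did not pass the threshold. CAP1, which helps cofilin to recycle monomers, had log2 fold changes of 0.78 without and 0.72 with offsets (SE 0.04 in the first). CFL2, the cofilin best known from muscle, showed the opposite pattern to CFL1 at -0.69 (SE 0.04) without offsets and -0.09 (SE 0.03) with them. Of the profilins, which load monomers onto filament ends, PFN1 was called in opposite directions by the fits at 0.14 and -0.36, and PFN2 stayed lower at -0.35 and -0.26.

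**Figure D2:**
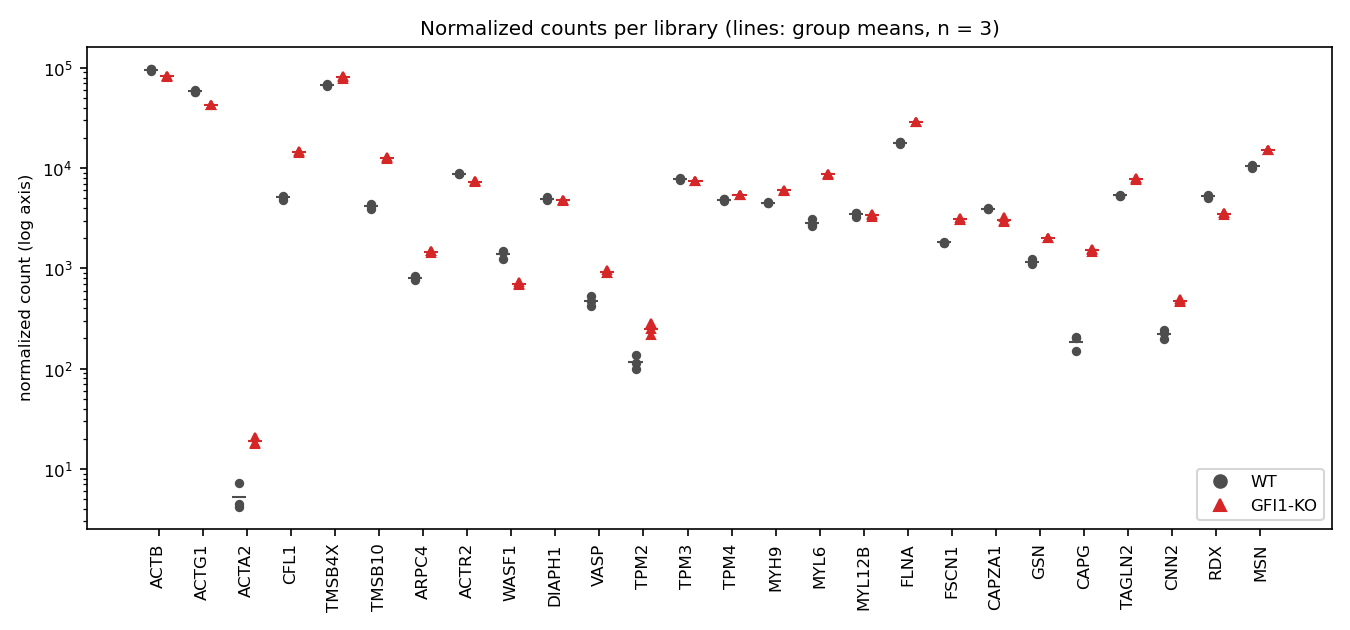
Normalized counts (vertical log axis) in each WT (gray circles) and GFI1-KO (red triangles) library for the members named by rule in each role, with lines at the group means (n = 3). For CAPG all 3 GFI1-KO libraries lie between 1466 and 1570 against 148 to 208 in WT, while MYL12B, DIAPH1 and TPM3 show groups at almost the same height.

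The Arp2/3 complex, which starts new filaments as branches on old ones, had 5 of its 9 fold changes turned in sign by the offsets, more than any other role. Without them, 4 of its 9 genes were higher (ARPC1B, ARPC4, ARPC2 and ARPC5L), 4 were lower (ACTR2, ACTR3, ARPC3 and ARPC1A) and ARPC5 did not pass, and with them 7 were higher and 2 were lower. Its summed FPKM ranged from 317 to 328 in WT and from 303 to 308 in GFI1-KO. ARPC4, a core subunit (ENSG00000241553, chromosome 3 from 9792495 to 9807726, plus strand), had 759, 827 and 834 normalized counts in WT and 1498, 1493 and 1428 in GFI1-KO, without overlap. The increase was 0.87 on the log2 scale (SE 0.05, adjusted p = 2.51e-14), and 0.59 with offsets. ARPC4 shares exons with the readthrough gene ARPC4-TTLL3, and 24.1% of its 50-base words occur elsewhere. ACTR2 encodes the Arp2 subunit, 1 of the actin-related proteins that form the base of the branch (ENSG00000138071, chromosome 2 from 65227753 to 65271253, plus strand), and had the highest FPKM of the complex at 123 ± 2.46 in WT and 101 ± 1.53 in GFI1-KO. Its normalized counts were 8747, 8669 and 9002 in WT and 7427, 7386 and 7208 in GFI1-KO, lower in every GFI1-KO library. The log2 fold change was -0.26 (SE 0.03, adjusted p = 3.66e-08) without offsets and 0.30 (SE 0.03) with them. At 37.6%, its GC content was among the lowest of the members, and that of ACTR3, the gene of the Arp3 subunit, was the lowest at 35.1%. ACTR3 likewise went from -0.14 to 0.57, ARPC3 from -0.11 to 0.38 and ARPC5 from -0.03 to 0.57. ARPC1B, the minor form of the ARPC1 subunit here, had 20, 17 and 21 counts in WT and 70, 67 and 61 in GFI1-KO (log2 fold changes 1.61 and 1.20), a gain that both fits called. ARPC2 was higher by both fits, ARPC1A was lower by both, and both ARPC1 genes share exons with another annotated gene, with 22.5% of the words of ARPC1B and 56.6% of those of ARPC1A in other genes. The calls of ARPC5L and ARPC3 were the weakest of the complex. ARPC5L was past the threshold only narrowly (adjusted p = 0.0454, with a range of 0.0554 to 0.266 when any library but WT replicate 3 was left out), and ARPC3 lost its call without WT replicate 1, at a log2 fold change of -0.07.

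Of 10 genes for factors that activate Arp2/3, elongate filaments or act on branches, VASP, CORO1B and WASF2 rose, WASF1, DIAPH2, WASL, ENAH, EVL and CORO1C fell, and DIAPH1 did not pass. With offsets 3 were higher, 3 were lower and 4 did not pass. WASF1, a WAVE protein abundant in brain that turns on Arp2/3 (ENSG00000112290, chromosome 6 from 110099819 to 110180004, minus strand), had 1442, 1473 and 1248 normalized counts in WT and 703, 678 and 734 in GFI1-KO. It was lower by about the same amount without and with offsets, at -0.98 (SE 0.06, adjusted p = 6.07e-14) and -0.89. VASP, which promotes elongation at barbed ends (ENSG00000125753, chromosome 19 from 45506579 to 45526983, plus strand), had 472, 525 and 426 normalized counts in WT and 902, 972 and 908 in GFI1-KO. Its rise was 0.97 on the log2 scale (SE 0.07, adjusted p = 8.04e-13), and 0.48 with offsets. DIAPH1, a formin that lengthens unbranched filaments downstream of RhoA (ENSG00000131504, chromosome 5 from 141515016 to 141619055, minus strand), had the highest FPKM of this role, 40.6 ± 1.51 in WT and 38.7 ± 0.391 in GFI1-KO. Its normalized counts of 4887, 4782 and 5137 in WT and 4806, 4707 and 4765 in GFI1-KO overlapped (log2 fold change -0.05, SE 0.03, adjusted p = 0.167). It was called lower without WT replicate 2 (-0.08) and with upper-quartile factors or GC offsets alone (-0.09 under each). For the formin DIAPH2 the log2 fold change was -0.69 without and -0.15 with offsets, and for WASL, the broadly expressed N-WASP gene, -0.42 and 0.05. The VASP relatives ENAH and EVL had values of -0.39 and -0.25, and of 0.10 and -0.50 with offsets, so that EVL fell by both fits. WASF2, another WAVE gene, rose by both fits (0.36 and 0.21). Among coronins, which act on branched networks, CORO1B had 0.71 and CORO1C -0.18, and neither passed with offsets.

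Tropomyosins, which coat filaments and control access of myosin and cofilin to them, differed in size of change. TPM2 (ENSG00000198467, chromosome 9 from 35681992 to 35690121, minus strand) had 114, 98.5 and 136 normalized counts in WT and 217, 288 and 248 in GFI1-KO. Every GFI1-KO library was above every WT library (log2 fold change 1.11, SE 0.13, adjusted p = 1.44e-08, and 0.62 with offsets). TPM4, with a CArG box in a promoter window (ENSG00000167460, chromosome 19 from 16067021 to 16103005, plus strand), went from 4871, 4708 and 4899.6 normalized counts in WT to 5392, 5434 and 5409 in GFI1-KO. This was a smaller rise of 0.17 (SE 0.03, adjusted p = 5.26e-05), which the offsets left at 0.20. TPM3 (ENSG00000143549, chromosome 1 from 154155304 to 154194648, minus strand), the tropomyosin with the highest FPKM (56.6 ± 1.55 in WT and 53.4 ± 0.328 in GFI1-KO), had 8041, 7834 and 7606 normalized counts in WT and 7468, 7511 and 7414 in GFI1-KO. The groups stood just apart, but the test missed the threshold (log2 fold change -0.07, SE 0.03, adjusted p = 0.0578). It passed in the lower direction without WT replicate 3 (-0.10), by limma-voom, with all 3 other scalings and with a minimum of 10 counts in every library (from -0.11 to -0.07), and in the higher direction with offsets (0.21). TPM1 fell (-0.13, SE 0.04), a call that was lost with offsets. Summed FPKM of the tropomyosins overlapped between the groups, from 101 to 104 in WT and from 103 to 105 in GFI1-KO.

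In nonmuscle myosin II, the largest change was in a light chain. MYL6, the essential light chain that binds the neck of the heavy chain (ENSG00000092841, chromosome 12 from 56158161 to 56163496, plus strand), had 2750.2, 2659 and 3101 normalized counts in WT and 8745, 8501 and 8689 in GFI1-KO. It rose by 1.61 on the log2 scale (SE 0.04, adjusted p = 1.32e-21), and by 1.51 with offsets. MYL6 overlaps SMARCC2 on the opposite strand, and 13.3% of its words occur in other genes. MYH9, the heavy chain of myosin IIA (ENSG00000100345, chromosome 22 from 36281277 to 36388067, minus strand), had 4471, 4502 and 4609 normalized counts in WT and 5962, 6042 and 5935 in GFI1-KO, and MYH10, that of myosin IIB, had 5186, 5104 and 5507 in WT and 4135, 4168 and 4169 in GFI1-KO. The heavy chains thus moved apart, MYH9 by 0.40 (SE 0.03, adjusted p = 1.33e-11) and MYH10 by -0.34 (SE 0.03, adjusted p = 1.38e-09). The offsets reduced these to 0.11 and -0.13, and both calls were retained. Of the regulatory light chains, whose phosphorylation switches the motor on, MYL12B (ENSG00000118680, chromosome 18 from 3261479 to 3278431, plus strand) had the highest FPKM of its role in WT (108 ± 5.92, against 105 ± 4.22 in GFI1-KO). Its normalized counts of 3542, 3228 and 3567 in WT and 3415, 3523 and 3251 in GFI1-KO overlapped (log2 fold change -0.02, SE 0.04, adjusted p = 0.644). MYL12A was lower without offsets (-0.23) and not called with them (-0.06). MYL9, the regulatory light chain of smooth muscle, had 1 count in 1 GFI1-KO library and 0 in the other 5 libraries. At these depths a count of 0 allows up to 3 counts per library, for counting error only.

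Of 5 genes for crosslinking proteins, 4 were higher and FLNC was lower. All 5 lay in the part of highest GC content (from 53.3%), where 68.3% of all genes were higher and 10.1% lower. The count of higher genes therefore does not set this role apart from other genes of such GC content. With offsets, 3 were higher, 1 was lower and 1 was not called. FLNA, the main filamin, which joins filaments into gels and ties them to integrins, and whose promoter window holds a CArG box (ENSG00000196924, chromosome X from 154348524 to 154374638, minus strand), had 17300.1, 18096 and 18228 normalized counts in WT and 28768, 28845 and 28889 in GFI1-KO. All GFI1-KO libraries were above WT, by 0.69 on the log2 scale (SE 0.03, adjusted p = 1.02e-16). In FPKM it was the most abundant of its role, at 102 ± 2.93 and 163 ± 0.482. FSCN1, which packs filaments into the bundles of filopodia (ENSG00000075618, chromosome 7 from 5592823 to 5606655, plus strand), had 1803, 1843 and 1798 normalized counts in WT and 3071, 3059 and 3184 in GFI1-KO. Its log2 fold change was 0.77 (SE 0.04, adjusted p = 3.75e-16). With offsets, these changes dropped to 0.15 for FLNA and to 0.05 for FSCN1, which no longer passed, and FSCN1 had the highest GC content of all members (65.9%). The α-actinins ACTN1, another gene with a CArG box, and ACTN4, which link antiparallel filaments, rose by 0.37 and 0.58 without and by 0.19 and 0.17 with offsets. FLNC, the filamin of muscle (ENSG00000128591, chromosome 7 from 128830377 to 128859274, plus strand), was singled out after its values had been seen. It had 132, 116 and 128 normalized counts in WT and 26.7, 30.3 and 44.2 in GFI1-KO. This decrease, of -1.89 (SE 0.19, adjusted p = 1.43e-09), was opposite to the trend of genes of its GC content (62.3%) and became -2.43 with offsets.

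CAPG, which caps filament ends without cutting them, rose more than any other tested member in both fits. Its normalized counts (ENSG00000042493, chromosome 2 from 85394748 to 85418432, minus strand) were 201, 148 and 208 in WT and 1541, 1570.2 and 1466 in GFI1-KO. The mean went from 186 ± 32.5 to 1526 ± 53.6, 8.22-fold, with a log2 fold change of 3.03 (SE 0.08, adjusted p = 9.75e-22) and of 2.45 with offsets. No 50-base word of CAPG occurred in another gene. GSN, gelsolin, a calcium-dependent relative that cuts and caps filaments (ENSG00000148180, chromosome 9 from 121207794 to 121332843, plus strand), had 1109, 1153 and 1238 normalized counts in WT and 1998, 2007 and 2021 in GFI1-KO. It rose by 0.78 (SE 0.04, adjusted p = 1.45e-14), and by 0.67 with offsets. The CAPZ genes encode the heterodimer that caps most barbed ends, and CAPZA1 (ENSG00000116489, chromosome 1 from 112619173 to 112671619, plus strand) had the highest FPKM of this role in WT (57.9 ± 0.986, against 44.1 ± 2.65 in GFI1-KO, where CAPZB was higher at 51.4). CAPZA1 had 3926, 4017 and 3887 normalized counts in WT and 3245, 2896 and 2966 in GFI1-KO. It was lower without offsets (-0.38, SE 0.04, adjusted p = 1.99e-09) and higher with them (0.20, SE 0.04), as was CAPZA2 (-0.48 and 0.13). CAPZB, the partner of both, was higher without offsets (0.23) and not called with them (0.06).

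Among calponins and transgelins, which bind along filaments, CNN2 and TAGLN2 rose, CNN3 fell and TAGLN did not pass. CNN2, the member of this role with a CArG box (ENSG00000064666, chromosome 19 from 1026581 to 1039068, plus strand), had 198, 226 and 241 normalized counts in WT and 469.8, 491 and 458 in GFI1-KO. It rose by 1.09 on the log2 scale (SE 0.08, adjusted p = 6.78e-12), and by 0.62 with offsets. TAGLN2, the form outside smooth muscle (ENSG00000158710, chromosome 1 from 159918107 to 159925732, minus strand), had the highest FPKM of the role (130.2 ± 2.40 in WT and 188 ± 3.86 in GFI1-KO) and normalized counts of 5451, 5300.2 and 5259.6 in WT and 7678, 7984 and 7763 in GFI1-KO. The groups did not overlap (log2 fold change 0.55, SE 0.03, adjusted p = 3.16e-14), but the offsets left 0.09 of the change. CNN3 had a log2 fold change of -0.17 (SE 0.04), and of -0.08 with offsets, which was not called. TAGLN, a marker of smooth muscle, had 59, 69 and 49 counts in WT and 90, 63 and 98 in GFI1-KO, which overlapped. The test missed the threshold (log2 fold change 0.34, SE 0.20), passed it without WT replicate 2 (0.49) or GFI1-KO replicate 2 (0.51), and 45.6% of the words of TAGLN occur in other genes. CNN1, the calponin of smooth muscle, had 1, 0 and 0 counts in WT and 5, 6 and 2 in GFI1-KO and was not tested.

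Ezrin, radixin and moesin tie filaments to membrane proteins, and their transcripts moved in different directions. MSN, moesin (ENSG00000147065, chromosome X from 65588377 to 65741931, plus strand), had 10416, 10714 and 10097 normalized counts in WT and 15111, 15312 and 15135 in GFI1-KO, and the highest FPKM of the family (106 ± 3.13 and 153 ± 1.14). It rose by 0.54 (SE 0.03, adjusted p = 2.41e-14), and by more with offsets (0.74). RDX, radixin (ENSG00000137710, chromosome 11 from 109864295 to 110296722, minus strand), had 5356, 5037 and 5309 normalized counts in WT and 3589.5, 3369.8 and 3549 in GFI1-KO. All GFI1-KO libraries were lower (log2 fold change -0.58, SE 0.04, adjusted p = 7.49e-14), although the offsets left only -0.07 (SE 0.03). EZR rose by 0.27 without and by 0.13 with offsets.

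Many actin proteins exist as closely related forms, and the ratio of such a pair within a library does not depend on library scaling, although it does on the GC content of both genes. Of 24 pairs, all but CNN1 with CNN2 had counts for both genes in every library, which left 23. The log2 ratios of the groups did not overlap in 21 of them (exact two-sided permutation test, p = 0.1 each, the smallest that 3 libraries against 3 allow, and 0.110 after Benjamini-Hochberg adjustment over the pairs). Since 74.4% of all tested genes did not overlap when taken singly, and pairs of other genes were not examined, the count describes these pairs and sets them apart from no others. In 19 of these 21 pairs the shift was toward the gene of higher GC content. With corrected counts 16 pairs did not overlap, 12 of them with a shift toward the gene of higher GC content, and 14 kept their direction. PFN1 with PFN2 and ARPC5 with ARPC5L shifted in opposite ways without and with the correction.

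The 6 largest shifts among pairs with a mean of at least 100 counts for both genes all kept their direction with the correction. CFL2 made up 32.9%, 33.2% and 36.1% of the summed FPKM of CFL1 and CFL2 in the WT libraries and 10.5%, 9.66% and 10.4% in GFI1-KO, a difference in log2 ratio of -2.18, or -1.37 corrected. The share of cofilin-2 transcripts was thus lower in every GFI1-KO library, although counting of CFL1 is uncertain because genes on the opposite strand overlap it. TMSB10 made up 17.3%, 16.5% and 18.7% of the β-thymosin pair in WT and 35.6%, 34.9% and 34.2% in GFI1-KO (1.34 and 1.25 corrected). WASF2 went from 41.9%, 41.8% and 45.5% of its pair with WASF1 in WT to 65.8%, 65.9% and 64.9% in GFI1-KO (1.33 and 1.10 corrected). By FPKM, WASF2 was thus the lower of the pair in WT and the higher in GFI1-KO. By normalized counts, which are not scaled to gene length, it was above WASF1 in WT too (means of 1822 and 1388). WASF3, a WAVE gene outside the pair, had a higher FPKM than both in each group. Its FPKM was 34.2 ± 0.636 in WT and 36.2 ± 0.384 in GFI1-KO. CNN3 remained the major calponin, at 94.5%, 93.9% and 93.0% of the pair with CNN2 in WT and 86.3%, 86.2% and 86.6% in GFI1-KO (-1.27 and -0.70 corrected). TPM2 rose from 18.1%, 16.7% and 21.3% of the pair with TPM1 in WT to 31.9%, 38.9% and 34.8% in GFI1-KO (1.24 and 0.59 corrected), although counting of TPM1 is uncertain because antisense genes overlap it. EVL made up 51.2%, 48.5% and 53.9% of the pair with VASP in WT and 32.4%, 29.6% and 31.0% in GFI1-KO (-1.22 and -0.98 corrected), a shift toward VASP in each library. The heavy chain pair had a smaller shift, with MYH10 at 53.7%, 53.1% and 54.4% in WT and 41.0%, 40.8% and 41.3% in GFI1-KO (-0.74 and -0.24 corrected). CAPZA1 with CAPZA2 and TAGLN with TAGLN2 were the pairs whose ratios overlapped.

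**Figure D3:**
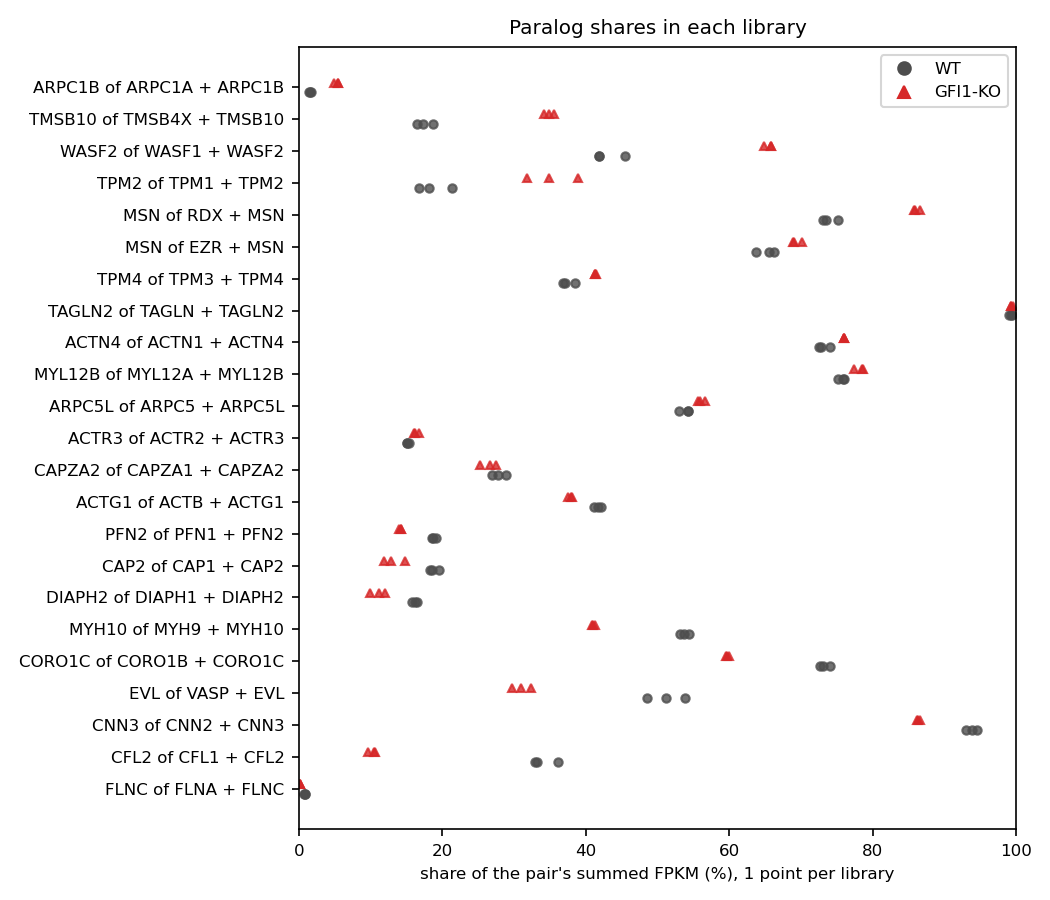
Share of the second gene in the summed FPKM of each pair of related genes, in percent (horizontal axis), with 1 point per WT (gray circles) and GFI1-KO (red triangles) library. The groups are far apart for CFL2 with CFL1 (32.9% to 36.1% in WT, 9.66% to 10.5% in GFI1-KO) and overlap for CAPZA2 with CAPZA1.

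Upstream regulators of the network that are not members were examined as a list of 46 genes, of which 45 were tested. Of these, 21 were higher (46.7%) and 20 were lower (44.4%), compared with 36.5% and 35.9% of all tested genes. With offsets 20 were higher and 14 lower, compared with 35.8% and 25.9% of all genes. Their median fold change without offsets was 0.03 on the log2 scale. The WAVE complex, formins and branch regulators had 9 higher and 9 lower of 20 tested (45% each). Where the mean count reached 100, the highest fold changes were those of the GTPases RHOC, from 649.6 ± 31.5 to 1848 ± 80.7 normalized counts, and RAC3, from 228 ± 30.3 to 648 ± 41.0. Their log2 fold changes were 1.51 and 1.50, and 0.95 and 0.70 with offsets. CYFIP2, a subunit of the WAVE complex in which WASF1 acts, went from 2288 ± 52.8 to 852 ± 26.0 normalized counts, which was -1.43 on the log2 scale without and -1.45 with offsets. The formin DAAM1 fell by 1.11 on the log2 scale, and by 0.57 with offsets. SRF and its cofactors were mixed. SRF itself rose by 0.77 (SE 0.06), MRTFA by 1.11 (SE 0.06) and ELK1 by 0.99 (SE 0.05), while MRTFB and ELK4 had changes of -0.46 and -0.45. With offsets SRF kept 0.22, MRTFA 0.83 and ELK1 0.60, MRTFB was not called and ELK4 was higher (0.11). MYOCD, the SRF cofactor of smooth and cardiac muscle, had 1 count over all libraries.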

How the data were processed

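RNA-Seq of 3 WT and 3 GFI1-KO libraries of H1155 cells was used. The authors deposited raw counts per gene, 1 value per library, and other values, the start, end and length of each gene in bases, from an annotation not named in the sources used here. The methods of the study name poly-T selection of mRNA, a NovaSeq system, FastQC, alignment to GRCh38/hg38 by Hisat2 and counting by featureCounts. The submitters' processing notes name Bowtie2, HTSeq and hg38 instead. Strand setting and the rule for reads with several matches are not given, which can shift counts of genes that overlap or have near copies.

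Differential expression was tested with edgeR 4.0.16 (R 4.3.3): filterByExpr, TMM, quasi-likelihood F test, all 6 libraries, no block and Benjamini-Hochberg adjustment over all tested genes. The threshold, an adjusted p of at most 0.05 without a fold minimum, was that of the study's methods, which name DESeq2 for the test. The standard error was taken as the absolute fold change (log2) over the root of F. GC content and shared 50-base words came from GENCODE 44 on GRCh38, where all 59 members and 58207 of 58735 identifiers were found. GC and length offsets were fitted per library as natural splines (5 degrees of freedom) over 17415 genes. Alternatives were DESeq2 1.42.0, limma-voom (limma 3.58.1), other scaling factors and filters, a replicate block, a threshold of 0.01 and leaving out each library. Pairs were compared by exact permutation of libraries. The code was tested on simulated data.

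Members and lists were chosen with earlier results of these data known. Named by rule were, in each role, the 2 members with the largest fold change among those past the threshold with a mean of at least 100 counts and no overlap of the groups, and the member with the highest FPKM, all 3 actins, the 6 largest pair shifts and the 2 highest and 2 lowest other pathway genes. Libraries of a group are replicates by label only, and their totals of 14882914 to 17692882 counts set how finely low genes can be measured, with 3 counts taken as the least a library can show. The ChIP-Seq and A549 data of the study were not analysed here. The level of 1 marker gene and the count of 1 sublist of upstream regulators are not reported here.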

Additional observations from a re-analysis of the deposited data

How the results depend on the processing

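Depth limits MYL9, CNN1, ACTA2 and ARPC1B, which had at most 70 counts in a library, and no source gives batches. The count of 28 higher members stayed between 26 and 32 under all alternatives run on the 57 tested members, and was between 27 and 29 with each library left out. The 32 with GC and length offsets were partly other genes. TMSB4X, CORO1B, FSCN1 and CAPZB lost the higher call, and PFN1 and ARPC5L turned lower. DSTN, CAP2, ARPC5 and TPM3 joined, and ARPC3, ACTR2, ACTR3, ENAH, CAPZA1 and CAPZA2 turned from lower to higher. Without the 14 members that share sequence with other genes, an alternative chosen after seeing the data, 17 were higher and 20 lower. The 22 lower members became 13 with GC and length offsets, 14 with GC offsets alone and 12 with GC and length offsets together with the replicate block. They were between 21 and 24 under the others, and between 21 and 23 with each library left out. The number of other pathway genes called, 41, stayed between 32 and 41 (40 to 41 with a library left out), and that of shifted pairs, 21, between 16 and 22 (21 to 22 with a library left out).

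The log2 fold change of GFI1, 0.31, no longer passed the threshold with GC and length offsets (0.072), GC offsets alone (0.10), GC and length offsets with the replicate block (0.077), DESeq2 (0.31) or upper-quartile factors (0.27), with adjusted p-values between 0.00688 and 0.636 over all alternatives. With each library left out it was between 0.21 and 0.43, and not past the threshold without WT replicate 2, WT replicate 3 or GFI1-KO replicate 2. Spearman's rho of fold change with GC content, 0.55, was 0.66 over the 53 members with a mean of at least 100 counts and 0.63 with the GC content of the canonical transcript.

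Signs turned with the GC and length offsets, and to the same rounded value with the replicate block added unless 2 values are given, for PFN1 (-0.36), ARPC3 (0.38), ARPC5 (0.57), ARPC5L (-0.14), ACTR2 (0.30), ACTR3 (0.57), WASL (0.046 and 0.045), ENAH (0.10), CORO1C (0.039), TPM1 (0.043 and 0.044), TPM3 (0.21), CAPZA1 (0.20), CAPZA2 (0.13) and TAGLN (-0.037 and -0.042). With GC offsets alone they turned for 12 of these, at -0.30 for PFN1, 0.44 for ARPC3, 0.52 for ARPC5, -0.12 for ARPC5L, 0.31 for ACTR2, 0.51 for ACTR3, 0.054 for WASL, 0.053 for ENAH, 0.15 for TPM3, 0.21 for CAPZA1, 0.082 for CAPZA2 and -0.028 for TAGLN. MYL12B, which was not called, was between -0.073 and 0.013 with each library left out and turned in sign without GFI1-KO replicate 3. The offsets use the GC content and length of each gene, and whether the trend they remove comes from library preparation was not tested. Over members and alternatives, 931 values kept their direction and side of the threshold, 34 lost the threshold, 19 gained it and 41 turned.

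The replicate number as a block left 28 members higher, 22 lower and 41 other pathway genes called, and GFI1 at 0.32. Same-numbered libraries did not deviate together (mean r of 0.0122, between -0.00355 and 0.0235, against -0.00612 for other pairs of libraries), so the numbers were not taken as a pairing.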
